A study of Mus musculus with 32 samples.

Results

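Genes that set which membrane leaflet holds phosphatidylserine were examined in mouse photoreceptors of clock-mutant and wild-type animals. The members were 8 genes chosen by name: the P4-ATPase flippases Atp11a, Atp11b, Atp8a1 and Atp8a2, their subunit Tmem30a, and the scramblases Xkr8, Plscr1 and Ano6. All 8 were found among the 54232 genes of the count table, each under 1 identifier, and all 8 passed the filter on low counts that left 17871 genes for testing.

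RNA was sequenced from photoreceptors that had been laser-microdissected out of frozen eyes. The mutant animals (KO) carried Per1-/-Per2Brdm1, which affects a pair of repressors of the circadian clock, and the control animals were wild type (WT). Both genotypes were male, 6 weeks old and of the strain C57BL/6/J x 129 SvEvBrd. Eyes were taken at the circadian times CT19, CT22, CT1 and CT10, which lie around the daily peak of outer segment phagocytosis, with 4 libraries in each of the 8 groups and 32 in all.

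Phosphatidylserine is normally kept on the cytosolic leaflet of the plasma membrane by flippases, ATP-driven pumps that need a CDC50 subunit to leave the endoplasmic reticulum. Scramblases move lipids in both directions without ATP and, once activated, bring phosphatidylserine to the outer surface, where phagocytes recognise it. In the retina, phosphatidylserine appears at the tips of photoreceptor outer segments before the pigment epithelium takes the tips up. The photoreceptor Atp8a2 is known as a flippase of outer segment disc membranes, and its loss in mice leads to photoreceptor degeneration.

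Library totals ran from 23833604 to 34582742 counts with a median of 30386012. Per2 stood at 168 to 267 CPM (counts scaled to the size of the library) in KO and at 15.2 to 44.3 CPM in WT, and Per1 at 170 to 323 CPM in KO and at 94.4 to 145.5 CPM in WT. These are counts of the whole genes and do not check the deletions. Summed over 8 rod markers, levels were 77020 to 112800 CPM in KO and 82580 to 136700 CPM in WT, so rod RNA was abundant in every library. These levels cannot tell dissected photoreceptors from whole retina, as no undissected retina was among the libraries. RNA of other retinal layers and of lens was also present: the mean log2 CPM of inner retina markers was 4.36 ± 0.28 in KO and 3.93 ± 0.51 in WT, and that of lens markers 4.95 ± 1.40 in KO and 5.88 ± 2.11 in WT (SD, n = 16 libraries each). No marker of any list was at 0 in all libraries. Over the mean of the 4 times, 4 of 8 rod markers had an edgeR adjusted p under 0.05, 3 lower and 1 higher in KO. Of 8 cone markers 4 did, all lower in KO. The median log2 difference was −0.15 for rod and −0.30 for cone markers, and 16.3% of all tested genes passed in this comparison. In bulk RNA, fewer cells of a type and less RNA per cell cannot be told apart.

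The 4 flippases are separate genes that share the catalytic site of P-type ATPases, at which an aspartate is phosphorylated in each transport cycle. The coding stretch around that site is shown because it is conserved among these pumps, and shows how far their RNAs can be told apart where their proteins are alike. The sequences are 63 bases, 5′ to 3′, from the GENCODE vM21 transcripts, with the codons of the aspartate-lysine-threonine-glycine-threonine signature in capitals.
Atp11a: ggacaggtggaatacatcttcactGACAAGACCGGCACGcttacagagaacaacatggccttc
Atp11b: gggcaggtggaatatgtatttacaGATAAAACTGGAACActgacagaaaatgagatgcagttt
Atp8a1: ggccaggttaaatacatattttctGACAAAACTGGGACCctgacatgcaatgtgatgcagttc
Atp8a2: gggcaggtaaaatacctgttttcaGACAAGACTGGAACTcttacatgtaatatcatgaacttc
All 4 signatures encode the same amino acids with different codons. Over the 63 bases, identity between pairs ran from 66.7% (Atp11a and Atp8a1) to 77.8% (Atp8a1 and Atp8a2). No stretch of 50 bases in any transcript of a member occurred in another member.

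The members lie on separate parts of the genome (GRCm38, GENCODE vM21): Atp11a on chromosome 8 (12757014 to 12868728, plus strand), Atp11b on chromosome 3 (35754106 to 35856276, plus), Atp8a1 on chromosome 5 (67618140 to 67847434, minus) and Atp8a2 on chromosome 14 (59638540 to 60197179, minus). Tmem30a lies on chromosome 9 (79768943 to 79793507, minus), Xkr8 on chromosome 4 (132724897 to 132732546, minus), Plscr1 on chromosome 9 (92249750 to 92272278, plus) and Ano6 on chromosome 15 (95790843 to 95974751, plus). Annotated genes whose exons overlap those of a member had at most 19 counts in any library. The share of a member's 50-base stretches that also occur in some other gene ran from 0% for Atp11b to 14.7% for Atp8a2 and was 2.75% for Atp11a. Gm5530, which shares 12.3% of the stretches of Plscr1, had at most 7 counts in a library, and the counts of the other genes that share stretches were not examined, so the scarce Plscr1 counts are uncertain.

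RNA of the 4 flippases and of Tmem30a was more abundant in these libraries than that of the 3 scramblases. Which of the cells present held this RNA was not tested. Levels were compared between genes as CPM per kb of exon, over all 32 libraries. Atp11a was highest at 59.5 ± 8.82 CPM per kb, above 97.3% of tested genes, followed by Atp11b at 46.6 ± 5.25 and Atp8a2 at 30.5 ± 3.54 CPM per kb (SD, n = 32). The subunit Tmem30a stood at 22.1 ± 2.86 CPM per kb and Atp8a1 at 5.33 ± 0.62 CPM per kb. The scramblases lay far lower, with Xkr8 at 0.341 ± 0.117, Plscr1 at 0.287 ± 0.131 and Ano6 at 0.152 ± 0.051 CPM per kb, levels that exceed those of 19.1%, 17.1% and 10.1% of tested genes. Their counts per library were 17 to 97 for Xkr8, 4 to 44 for Plscr1 and 15 to 118 for Ano6, against 10164 to 26920 for Atp11a.

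**Figure D1:**
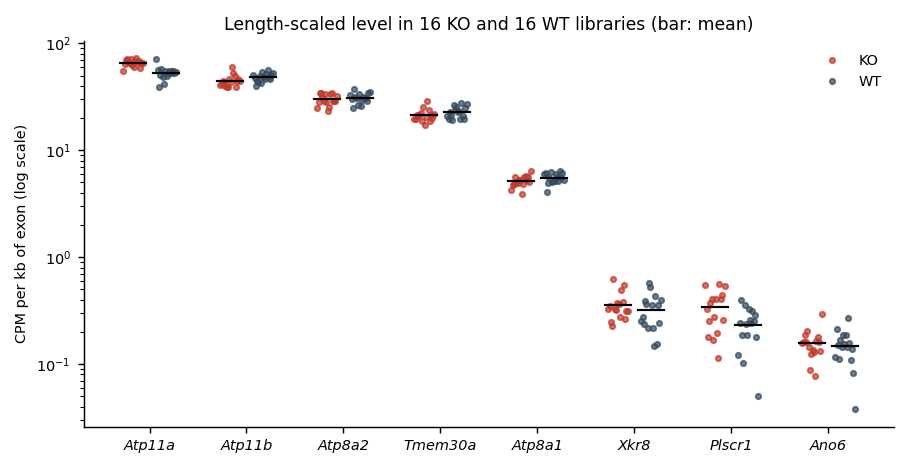
Length-scaled level of each member (CPM per kb of exon, log scale) in the 16 KO libraries, left, and the 16 WT libraries, right, with 1 point per library and a bar at the mean. The 5 flippase and subunit genes lie at 3.92 CPM per kb or more in every library and the 3 scramblases at 0.622 or less.

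Most steps in this order held library by library. Atp11b exceeded Atp8a2, Atp8a2 exceeded Tmem30a, Tmem30a exceeded Atp8a1 and Atp8a1 exceeded Xkr8 in 32 of 32 libraries. Atp11a exceeded Atp11b in 28 of 32 libraries, Xkr8 exceeded Plscr1 in 20 and Plscr1 exceeded Ano6 in 29. With the length of the transcript that holds the longest reading frame in place of all exons, an alternative chosen after seeing the data, Atp11a exceeded Atp11b in 17 of 32 libraries and Atp8a2 exceeded Tmem30a in 22, and Ano6 ranked 6 of 8. The order of Atp11a and Atp11b, that of Atp8a2 and Tmem30a and that of the 3 scramblases are therefore not fixed by these data.

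Atp11a, a flippase of the plasma membrane that is known to be inactivated in dying cells, was the member that differed between the genotypes. It averaged 735 ± 53.6 CPM in KO and 591 ± 77.9 CPM in WT (SD, n = 16 libraries each), a fold of 1.25. Over the mean of the 4 times, Atp11a was 0.32 higher in KO on the log2 scale (SE 0.05, 95% interval 0.22 to 0.42, edgeR quasi-likelihood adjusted p = 3.31e-05). It was the 1 of 8 members called in this comparison, against 16.3% of all tested genes called and 9.88% called as higher, so the number of members called lies near the background.

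The KO mean was the higher one at each of the 4 times, which was not called at each. At CT19, Atp11a stood at 621, 667, 744 and 765 CPM in KO, against 557, 615, 636 and 797 CPM in WT. At CT22, the KO libraries had 657, 709, 737 and 771 CPM and the WT libraries 544, 586, 616 and 632 CPM. The groups overlapped at CT19, where the highest single value belonged to WT, and were apart at CT22.

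At CT1, Atp11a reached 731, 788, 796 and 809 CPM in KO, against 437, 469, 590 and 610 CPM in WT. At CT10, the KO libraries had 697, 733, 748 and 789 CPM and the WT libraries 567, 592, 598 and 614 CPM. The groups were apart at both times, and at CT1 WT replicates 1 and 5 were the low ones. These replicates were also the lowest WT libraries of CT1 for the other flippases. They had 393 and 366 CPM of Atp11b (others 468 and 474) and 413 and 381 CPM of Atp8a2 (others 486 and 532). For Atp8a1 they had 71.7 and 58.5 CPM (others 79.6 and 86.8). Tmem30a was not lowest in them, at 133.5 and 128.4 CPM (others 109.8 and 141.0).

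On the log2 scale, the KO minus WT difference of Atp11a was 0.10 at CT19 (SE 0.10, edgeR adjusted p = 0.590) and 0.27 at CT22 (SE 0.10, adjusted p = 0.210), neither of which passed the test. The CT19 value rested on single libraries: leaving out KO replicates 2, 3 or 4 of that time gave 0.07, 0.06 or 0.155, and leaving out WT replicates 1 or 3 gave 0.03 or 0.21. With the level of inner retina markers as a covariate the CT19 difference was 0.19, and with that of lens markers as a further one 0.21. Atp11a was called at CT1 (0.57, SE 0.10, edgeR adjusted p = 7.05e-04, fold 1.48) and at CT10 (0.32, SE 0.10, adjusted p = 0.0348, fold 1.25). Of all tested genes, CT19 had 5.19% called, CT22 had 1.53%, CT1 had 1.58% and CT10 had 10.2%. All KO libraries lay above all WT libraries for 3.61% of tested genes at CT22, 3.4% at CT1 and 10.5% at CT10. The differences at the 4 times were not shown to be unequal: the test of genotype by time gave an edgeR adjusted p of 0.217 for Atp11a, and 1.62% of tested genes were called in it.

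**Figure D2:**
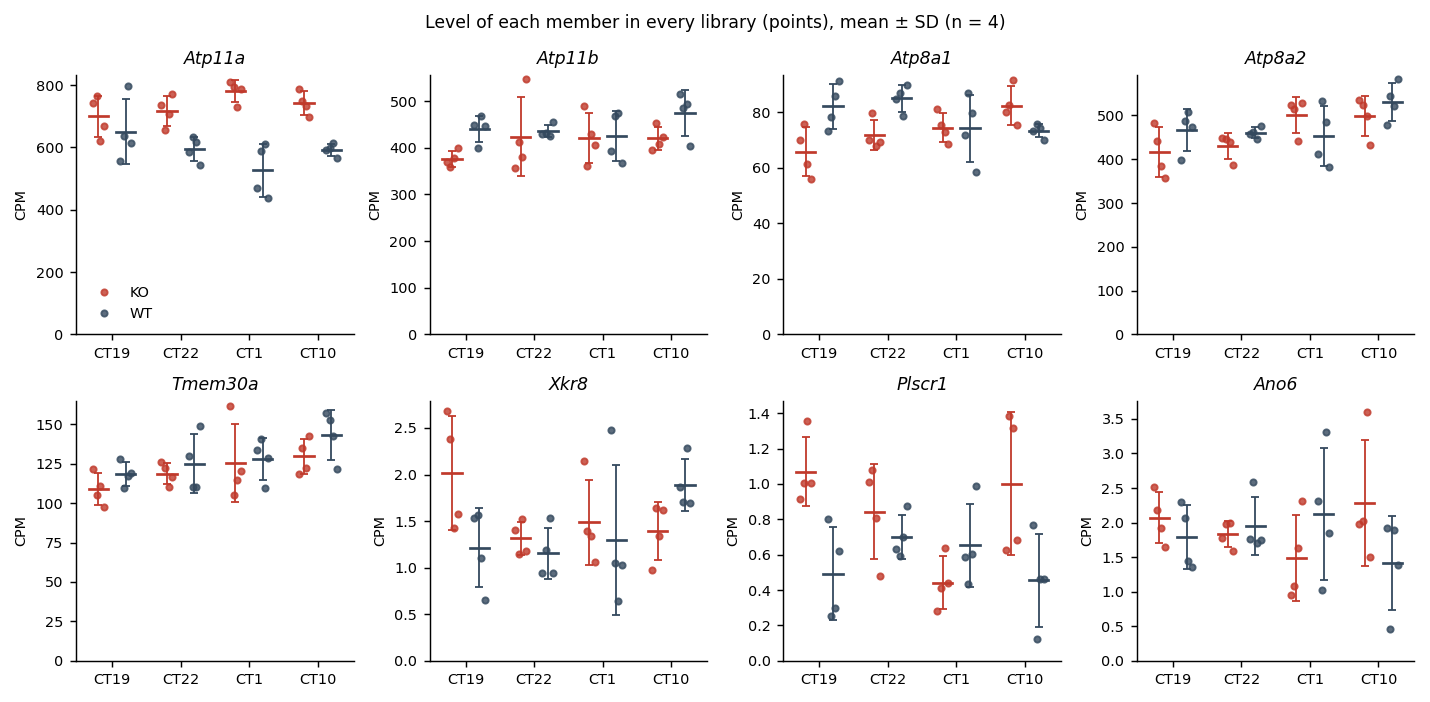
Level of each member in CPM (vertical axes start at 0) at CT19, CT22, CT1 and CT10, with KO left of WT, 1 point per library and the mean ± SD of 4 libraries. Atp11a shows KO above WT with no overlap at CT22, CT1 and CT10, and the 3 scramblases show wide spread at a few CPM or less.

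The call at CT10 was the less stable. It was lost when any of KO replicates 2, 3 or 4 or any of the 4 WT replicates of CT10 was left out (adjusted p up to 0.107), with the difference at 0.29 to 0.35 over all fits that left out 1 library. With the inner retina level as a covariate it was 0.51 (adjusted p = 0.0584), and with the lens level added 0.39 (adjusted p = 0.441). At CT10 the inner retina markers stood at a mean log2 CPM of 4.38 ± 0.17 in KO and 3.32 ± 0.38 in WT, and the lens markers at 4.66 ± 1.46 in KO and 7.27 ± 0.92 in WT (SD, n = 4 each). At that time 11 of 12 bipolar, 5 of 10 Müller glia and 4 of 10 amacrine markers were called higher in KO. So were 3 of 5 horizontal cell and 2 of 5 endothelium markers. Called lower were 2 of 8 cone, 1 of 8 rod and 1 of 8 lens markers, and 10.2% of all tested genes were called in either direction. Their part in the CT10 difference beyond these fits was not tested.

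The call at CT1 and that over the mean of the 4 times held in every setting run. The difference at CT1 lay between 0.54 and 0.63 over 9 alternative settings (adjusted p at most 0.0403) and between 0.49 and 0.65 over 32 fits without 1 library. At CT1 the inner retina markers stood at 4.08 ± 0.20 in KO and 3.88 ± 0.42 in WT, and the lens markers at 5.99 ± 1.62 in KO and 7.67 ± 0.87 in WT. With both levels as covariates, Atp11a was 0.54 higher in KO at CT1.

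**Figure D3:**
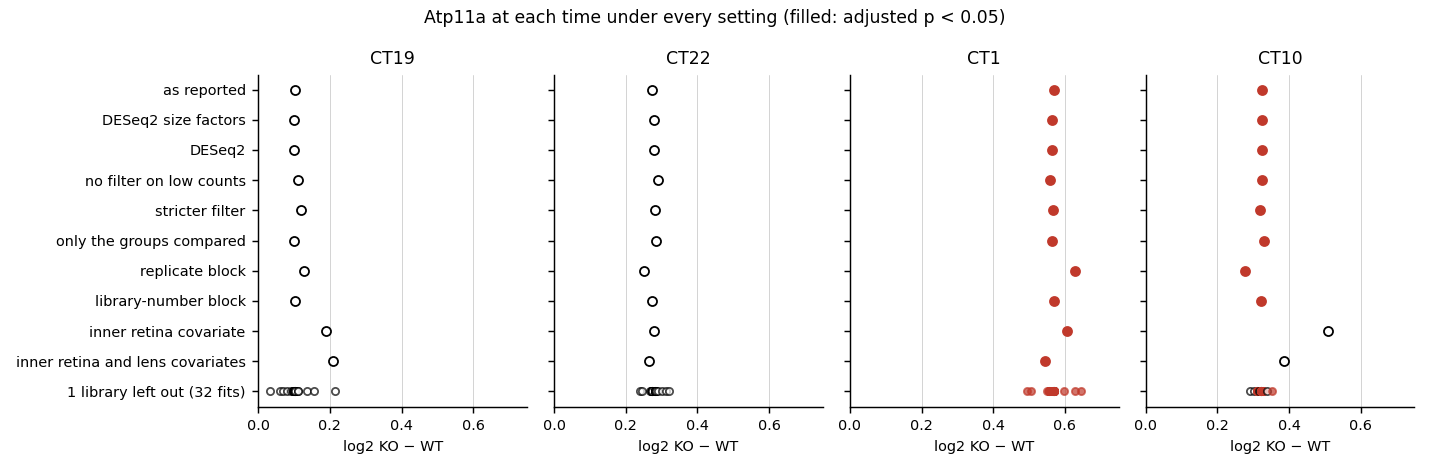
KO minus WT difference of Atp11a (log2, horizontal axes) at each time under the settings named on the vertical axis, with filled points where the adjusted p was under 0.05. All points at CT1 are filled, those at CT10 are open with the inner retina covariate at 0.51, with both covariates at 0.39 and in 7 of the fits without 1 library, and all points at CT19 and CT22 are open.

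The library numbers in the labels run in 4 runs of 8, each with 1 library of every group. The labels do not call these runs a batch. Within runs, Atp11a was higher in the KO library than in the WT library of the same time in 15 of 16 pairs, with differences from −0.36 to 0.85 and run means from 0.25 to 0.40 on the log2 scale. The 1 pair in the other direction was at CT19 and held WT replicate 3, the library with 797 CPM.

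The flippase mixture differed as well. Summed over the 4 flippases, the level was 146 ± 10.4 CPM per kb in KO and 138 ± 12.4 CPM per kb in WT (SD, n = 16 each). Atp11a made up 45.2% ± 1.77 of that sum in KO, with a range of 42.6% to 48.4%, and 38.4% ± 2.37 in WT, with a range of 36.0% to 44.3%. At CT1 its share was 43.9% to 47.7% in KO and 36.0% to 38.1% in WT, and at CT10 42.9% to 45.9% in KO and 36.5% to 37.2% in WT. The ratio of Atp11a to Atp11b per kb was 1.49 ± 0.19 in KO and 1.10 ± 0.13 in WT. At CT19, where Atp11a was not called, its share was 44.1% to 48.4% in KO and 38.5% to 44.3% in WT. The summed flippases at CT19 stood at 135.4 ± 8.37 CPM per kb in KO and 142.4 ± 13.45 in WT (SD, n = 4 each). The shares and the ratio thus reflect the levels of the other flippases as well as that of Atp11a. They carry no test of their own, and their sizes depend on the exon lengths used. With the length of the longest-frame transcript, Atp11a averaged 89.1 and Atp11b 87.75 CPM per kb over all 32 libraries. Shares and ratios by genotype were not computed with that length.

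The genes whose pattern over the 8 group means was most like that of Atp11a, by the root mean square difference of centred log2 values among 10631 genes, were Dock6 (0.055), Rev1 (0.055) and Neurl1a (0.060).

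The promoter windows of the members were searched for motifs that clock factors are known to bind. RefSeq windows (GRCm38.p6) of 300 bases were matched for 6 of 8 members, all but Atp8a2 and Xkr8. The window of Atp11a, chr8:12756766-12757065 on the plus strand, is shown because it belongs to the member that differed; it is 76% G and C.
Atp11a: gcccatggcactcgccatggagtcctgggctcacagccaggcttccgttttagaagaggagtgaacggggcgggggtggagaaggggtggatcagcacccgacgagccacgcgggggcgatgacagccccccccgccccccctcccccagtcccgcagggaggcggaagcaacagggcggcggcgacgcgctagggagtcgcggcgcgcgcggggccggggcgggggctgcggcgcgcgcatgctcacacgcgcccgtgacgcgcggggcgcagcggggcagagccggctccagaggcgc
On both strands the letters CACGTG (E-box), TTATGTAA and TTATGCAA (forms of the D-box) and AGGTCA (the ROR half-site) were searched, and 0 of 6 member windows held any of them. Of 32851 windows of the same length, 7.15% hold CACGTG, 0.938% TTATGTAA, 0.743% TTATGCAA and 16.3% AGGTCA. The search shows only that these letters are not in these windows.

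The other flippases and the subunit did not pass the test between the genotypes. Over the mean of the 4 times their log2 differences lay between −0.11 (Atp11b) and −0.05 (Atp8a2), with edgeR adjusted p from 0.157 to 0.547. Tmem30a, on which all 4 flippases depend, averaged 21.4 ± 2.77 CPM per kb in KO and 22.8 ± 2.84 in WT (SD, n = 16 each), a log2 difference of −0.09 with a 95% interval of −0.21 to 0.02. The interval leaves out a rise of Tmem30a of the size seen in Atp11a. Per kb of exon, summed flippases stood at 6.89 ± 0.70 times the Tmem30a level in KO and 6.13 ± 0.95 times in WT. Both multiples depend on the lengths used.

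Atp11b, which works in endosomal and Golgi membranes, was at 359, 369, 378 and 400 CPM in KO at CT19, against 400, 446, 448 and 467 CPM in WT. The groups touched at about 400 CPM, and the log2 difference was −0.23 (SE 0.11, edgeR adjusted p = 0.217). Over the mean of the times, Atp11b stood at −0.11 (SE 0.05, adjusted p = 0.157, unadjusted p = 0.0435), and it was higher in KO in 3 of the 16 within-run pairs. Without KO replicate 4 of CT22, the highest Atp11b library at 546.5 CPM, it was −0.15 (adjusted p = 0.0249). With the inner retina covariate it was −0.045 and with both covariates −0.061 (adjusted p = 0.790 and 0.789).

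Atp8a1, a flippase of neurons that is found in recycling membranes, came closest to the threshold at CT19. Its KO libraries there had 56.0, 61.2, 70.1 and 75.8 CPM, against 73.2, 78.2, 85.8 and 91.3 CPM in WT. The highest KO library exceeded the lowest WT library, and the groups overlapped in no other way. The log2 difference was −0.32 (SE 0.10, edgeR adjusted p = 0.0527, DESeq2 adjusted p = 0.0323), it was −0.25 at CT22 (SE 0.10, edgeR adjusted p = 0.279), and it was 0.17 at CT10 (SE 0.10, adjusted p = 0.308). At CT19 Atp8a1 was called in 6 of 32 fits without 1 library, those without KO replicate 3 or WT replicate 1 of CT19, KO replicate 1 or WT replicate 3 of CT22, or WT replicate 3 or 5 of CT1. The genotype by time test did not pass for Atp8a1 (edgeR adjusted p = 0.118).

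Atp8a2, the disc flippase, had nearly the same levels in both genotypes. Its mean was 462 ± 56.1 CPM in KO and 478 ± 53.4 CPM in WT (SD, n = 16 each), and the log2 difference was −0.05 with a 95% interval of −0.16 to 0.05 (edgeR adjusted p = 0.547). Per kb of exon, Atp8a2 exceeded its close relative Atp8a1 by 5.84 ± 0.54 times in KO and by 5.68 ± 0.78 times in WT. With the length of the longest-frame transcript, they averaged 36.47 and 9.307 CPM per kb over all 32 libraries, so the multiple depends on the length used.

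**Figure D4:**
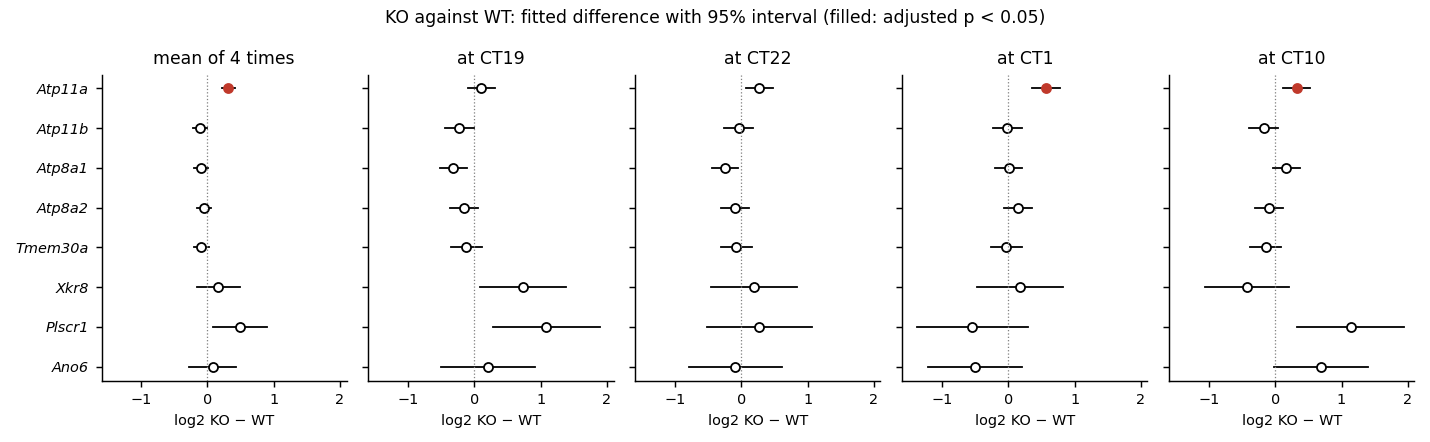
Fitted KO minus WT difference (log2, horizontal axes) of each member averaged over the 4 times (left) and for single times, with 95% intervals and filled points where the adjusted p was under 0.05. Atp11a is filled over the mean (0.32), at CT1 (0.57) and at CT10 (0.32), and the scramblases have the widest intervals.

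No scramblase passed the test between the genotypes at any time, at levels where counting error and spread are large. Ano6, the calcium-activated scramblase known as TMEM16F, was at 0.08 over the mean of the times on the log2 scale, with a 95% interval of −0.28 to 0.43. Xkr8, which exposes phosphatidylserine in apoptosis, was at 0.17 with an interval of −0.16 to 0.49. Both signs turn with the inner retina covariate, to −0.21 for Ano6 and −0.041 for Xkr8. The intervals do not exclude differences as large as that of Atp11a in either gene.

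Plscr1, an interferon-induced gene whose protein scrambles lipids with calcium in reconstituted membranes, had the largest difference of the 8 members over the mean of the times, 0.49 (SE 0.20, edgeR adjusted p = 0.0932). At CT19 its KO libraries had 0.912, 1.005, 1.005 and 1.36 CPM, against 0.253, 0.297, 0.621 and 0.800 CPM in WT. At CT10 the KO libraries had 0.627, 0.682, 1.31 and 1.39 CPM and the WT libraries 0.124, 0.461, 0.464 and 0.771 CPM. The groups were apart at CT19 and overlapped at CT10.

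The log2 difference of Plscr1 was 1.08 at CT19 (SE 0.40, edgeR adjusted p = 0.105) and 1.14 at CT10 (SE 0.40, adjusted p = 0.0636, DESeq2 adjusted p = 0.0392). At CT10 Plscr1 was called in 1 of 32 fits, the one without WT replicate 1. All KO libraries lay above all WT libraries for 5.52% of tested genes at CT19. With the inner retina covariate the Plscr1 difference was 0.42 at CT10 (edgeR adjusted p = 0.819) and 0.19 over the mean of the times (adjusted p = 0.758). With both covariates it was 0.89 at CT10 (adjusted p = 0.703) and 0.38 over the mean (adjusted p = 0.546). Over the 7 microglia markers, which mark another cell type that could hold such RNA, summed levels were 2.55 to 6.999 CPM in KO and 0.750 to 5.25 CPM in WT, with none at 0. Over the mean of the times 2 of 6 tested microglia markers were called, both higher in KO, with a median of 0.63, and their part in the Plscr1 values was not tested.

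Xkr8 was at 1.42, 1.58, 2.38 and 2.68 CPM in KO at CT19, against 0.657, 1.10, 1.54 and 1.56 CPM in WT. At CT10 it was at 0.9748, 1.34, 1.62 and 1.64 CPM in KO and at 1.69, 1.70, 1.87 and 2.28 CPM in WT. The WT libraries were all higher at CT10, a pattern that 9.08% of tested genes share at that time. On the log2 scale the differences were 0.73 at CT19 (SE 0.32, edgeR adjusted p = 0.173) and −0.43 at CT10 (SE 0.31, adjusted p = 0.426). The CT10 difference was −0.996 with the inner retina covariate and −1.19 with both (adjusted p = 0.336 and 0.467).

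Time of day moved none of the 8 members past the threshold. Within KO 0 of 8 were called and 1 gene of all those tested (0.0056%), and at an unadjusted p under 0.05 the members Atp8a1, Atp8a2 and Plscr1 passed, against 10.4% of tested genes. Within WT 0 of 8 were called, against 14.6% of tested genes, and at an unadjusted p under 0.05 Atp11a passed (edgeR adjusted p = 0.147), against 29.4% of tested genes. The distance between the highest and lowest of the 4 time means of Atp11a was 0.16 in KO and 0.31 in WT on the log2 scale. For genotype by time 0 of 8 were called, with Atp11a, Atp8a1 and Plscr1 at an unadjusted p under 0.05, against 16.5% of tested genes. DESeq2 called 0 members in each of these comparisons.

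Between CT1 and CT22, around the onset of the subjective day, 0 of 8 members and 0% of tested genes were called in either genotype by edgeR. DESeq2 called 0 members. In KO, CT1 minus CT22 differences ran from −0.93 for Plscr1 (SE 0.40, edgeR adjusted p = 0.900) to 0.22 for Atp8a2 (SE 0.10, adjusted p = 0.900), and those 2 members passed an unadjusted p of 0.05, against 5.23% of tested genes. In WT they ran from −0.20 for Atp8a1 to 0.18 for Xkr8, with 0 members past an unadjusted p of 0.05, against 10.5% of tested genes.

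Among related genes, a few others differed between the genotypes, and as many were lower as higher. Of 13 other P4-ATPases and CDC50 subunits 8 were tested and 2 were called, both lower in KO, against 16.3% of all tested genes called in this comparison, with a median over the 8 of −0.01, beside −0.003 over all tested genes. Atp8b2, a flippase of phosphatidylcholine, averaged 18.2 ± 3.598 CPM in KO and 25.9 ± 3.62 CPM in WT (SD, n = 16 each), a log2 difference of −0.50 (SE 0.08, edgeR adjusted p = 6.41e-05). At CT19 it was −0.55 (adjusted p = 0.0485), a call that held in 2 of 9 alternative settings and in 8 of 32 fits without 1 library, with differences between −0.77 and −0.46. Atp9a, an endosomal P4-ATPase that works without a CDC50 subunit, averaged 46.4 ± 8.78 CPM in KO and 61.3 ± 12.3 CPM in WT, a difference of −0.39 (SE 0.09, adjusted p = 0.00263). With both covariates the Atp9a difference was −0.35 (adjusted p = 0.0942).

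Of 20 other genes of the scramblase families 14 were tested and 1 was called over the mean of the times, a share below the 16.3% of all tested genes, with a median of 0.14. Ano4, a calcium-dependent anoctamin, stood at 0.596 ± 0.235 CPM in KO and 0.380 ± 0.211 CPM in WT (0.66, SE 0.21, edgeR adjusted p = 0.0275). Its call was lost without KO replicate 2 of CT22 or KO replicate 6 of CT1 and with the inner retina covariate (0.34, adjusted p = 0.565) or both covariates (0.37, adjusted p = 0.625). Several lists of other cell types rose in the same comparison. Called higher were 10 of 12 bipolar markers (median of the list 0.51) and 4 of 5 horizontal cell markers (0.64). So were 6 of 10 Müller glia markers (0.45) and 4 of 10 amacrine markers (0.31). Their part in the Ano4 difference beyond these fits was not tested. Ano10 was called across the times in WT, with a distance of 0.95 between its highest and lowest time means (adjusted p = 9.27e-04). With both covariates that distance was 0.81 (adjusted p = 0.274).

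The list that holds the 2 partner proteins of Xk-family scramblases had 4 tested genes. Over the mean of the 4 times 1 of them was called, against 16.3% of all tested genes. Basigin (Bsg), the chaperone partner of Xkr8 and of monocarboxylate transporters, averaged 744 ± 63.5 CPM in KO and 607 ± 75.01 CPM in WT (SD, n = 16 each), a log2 difference of 0.30 (SE 0.05, edgeR adjusted p = 7.94e-05). At CT10 Bsg was 0.48 higher in KO (SE 0.10, adjusted p = 0.00210). With the inner retina covariate it was 0.52 (adjusted p = 0.0710) and with both covariates 0.51 (adjusted p = 0.280). The other partner, Nptn, stood at 0.08 (SE 0.04, adjusted p = 0.116). Of the 3 enzymes that make or decarboxylate phosphatidylserine 0 were called by edgeR, against the same 16.3% of all tested genes. Differences were 0.01 for Ptdss1, −0.04 for Ptdss2 and 0.15 for Pisd, which had an unadjusted edgeR p of 0.0308.

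**Figure D5:**
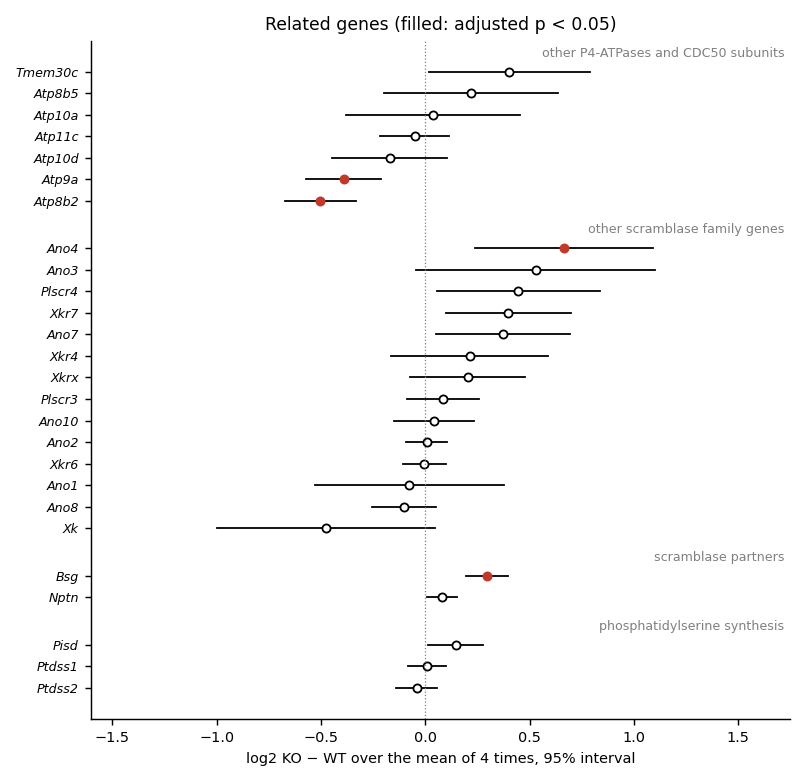
KO minus WT difference over the mean of the 4 times (log2, horizontal axis) with 95% intervals for the related genes in 4 lists, with filled points where the adjusted p was under 0.05. Of the 8 tested P4-ATPases and CDC50 subunits 7 are drawn, and of the third list the 2 partner proteins. Filled points are Atp8b2 (−0.50) and Atp9a (−0.39) on the lower side, and Ano4 (0.66) and Bsg (0.30) on the higher side.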

How the data were processed

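The deposited file holds whole-number read counts per Ensembl gene, 1 column per library, which the authors had not normalized as far as its values show. The submitters' processing notes name Trimmomatic 0.32, HISAT2 2.1.0, Cufflinks, HTSeq 0.11 and the build GRCm38.p6; for the annotation release, strand setting and counting filters nothing was given in the sources used here. Symbols came from GENCODE vM21, which named 99.9% of the identifiers. Without a known strand setting, reads of a gene and an antisense partner cannot be told apart.

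Groups followed the sample titles, with the replicate number being the animal number in the title. The library called WT replicate 5 at CT1 carries 2 animal numbers and was used as 1 library. No pair of libraries from the same group agreed within counting error (chi-square over its degrees of freedom 11.0 to 96.0). The titles also carry a letter before the circadian time, which is R for WT replicate 5 of CT10 and L for all others. The titles do not say what this letter means. Nothing else in the labels says more of how animals were kept or sampled, so p-values measure the spread between these libraries.

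The tests used edgeR 4.0.16 under R 4.3.3: filterByExpr (minimum count 10, minimum total 15), TMM scaling, and a robust quasi-likelihood fit of 8 group means with 24 residual degrees of freedom. P-values were adjusted over all 17871 tested genes by Benjamini and Hochberg, and called means an adjusted p under 0.05. For time and genotype by time the size given is the distance between the highest and lowest value. Levels are TMM-scaled CPM, per kb of the union of exons where genes are compared. Intervals are at 95%. Shares and ratios were computed per library from these levels.

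The alternatives were DESeq2 1.42.0, its size factors in edgeR, no filter, a stricter filter (1 CPM in 4 libraries), only the groups compared, blocks of replicate or library number, inner retina and lens levels as covariates, and leaving out each library. The procedure was tested on simulated counts. The members and gene lists were chosen with earlier results of these data known. Named related genes are those past the threshold, with the partners and synthesis enzymes of the lists. Some related genes are not reported here.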

Additional observations from a re-analysis of the deposited data

Results flagged for a closer look

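In each of 64 combinations of member and group, the distance of the highest or lowest library to its neighbour was set against the range of the 4 libraries, with the 95% critical ratio of Dixon's test for 4 values. Chance alone passes it in about 5 of 100 groups, and 4 combinations passed. Atp8a1 in KO at CT22 was 79.7 CPM in replicate 2, against 67.9 to 69.9 CPM in the other libraries. Atp8a2 in KO at CT22 was 387.6 CPM in replicate 4, against 439 to 449 CPM in the others, and this is the library with the highest Atp11b level of all. Atp8a2 in KO at CT1 was 441 CPM in replicate 5, against 515 to 529 CPM in the others. Ano6 in WT at CT22 was 2.59 CPM in replicate 2, against 1.71 to 1.77 CPM in the others. None of the 4 concerns Atp11a.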

How the results depend on the processing

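Among the alternative values followed for single members, 1921 kept their side of the threshold, and their direction where they had one. Of the rest 8 changed sign, 14 gained a call and 9 lost one. Values for time and for genotype by time are distances, which cannot change sign. At single times and between CT1 and CT22, only some of the members were followed. The number of members called over the mean of the 4 times was 1 in the settings other than leaving out a library, and 1 to 2 when a library was left out: Plscr1 joined without WT replicate 1 of CT19 or of CT10, and Atp11b without KO replicate 4 of CT22. At CT19 the number was 0, with 1 (Atp8a1) under the library-number block and under DESeq2, and 0 to 1 without a library. At CT10 it was 1, with 2 (Plscr1 added) under the replicate block and under DESeq2, 0 with the inner retina covariate and 0 with both covariates, and 0 to 1 without a library. The other comparisons kept their number in every setting run. Among the differences followed, the uncalled ones that changed sign belonged to Xkr8 and Ano6. Xkr8 over the mean was −0.041 with the inner retina covariate and −0.11 with both. Ano6 over the mean was −0.21 and −0.16 with these, and −0.0030 to 0.15 without a library. Ano6 at CT10 was −0.0033 with the inner retina covariate. Xkr8 between CT1 and CT22 in WT ran from −0.34 to 0.41 without a library.

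Deviations of same-numbered KO and WT libraries from their group means had correlations from −0.10 to 0.21. With only 4 libraries in each mean, these cannot decide whether the numbers pair animals. The replicate block changed no other call of a member. All tested genes had a median difference of −0.003 under both scalings. Genes called over the mean of the times numbered 2909, but 809 with the inner retina covariate and 625 with both. The cause of these changes was not tested. Depth limits the scramblases, where a library held as few as 4 counts.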
